A study of Homo sapiens with 4 samples.

Results

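The genes described here are 9 genes of the cell cycle and of adrenocortical tumours, RB1, CDKN2A, CDKN1A, MDM2, CCNE1, CDK4, MYC, TERT and MEN1. They are 9 of the 20163 protein-coding genes annotated, and each was examined with all FAIRE sites that touched its GENCODE gene body or the 50 kb on either side. FAIRE-seq recovers DNA that is poorly crosslinked to histones and so maps nucleosome-depleted, accessible chromatin. It was applied to H295R/TR SF-1 cells, 1 subclone derived from H295R, a line of adrenocortical tumour cells, in which doxycycline induces the nuclear receptor SF-1 (NR5A1). The basal condition was cells without doxycycline and the SF-1 overexpression condition was cells given doxycycline for 3 days, so that SF-1 dosage and doxycycline itself cannot be told apart. Each condition had 1 FAIRE library with 1 deposited list of sites, and no test between conditions exists. Sites near the 9 genes numbered 41 of 34423 in the basal list and 44 of 31219 in the overexpression list. Sequencing depth is unknown, intervals cover counting error only, and a site missing from a list means only that it was not called there. As a check of the cell type, a site lay at the promoter of 3 of 6 adrenocortical marker genes in the basal list (NR5A1, STAR and CYP17A1) and of 4 of 6 in the overexpression list (STAR, CYP11A1, CYP17A1 and MC2R), and at 0 of 8 and 1 of 8 markers of other cell types, the 1 being SYN1. Among all protein-coding genes 46.7% and 48.9% had such a site, so the adrenocortical markers stood close to that background under basal SF-1 expression, and the check says little about cell type.

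The retinoblastoma protein, encoded by RB1, holds E2F transcription factors in check until cyclin-dependent kinases phosphorylate it. CDK4, partnered by D-type cyclins, and CDK2, partnered by cyclin E (CCNE1), carry out that step. The inhibitor p21 from CDKN1A acts on these kinases, and p16 from CDKN2A inhibits CDK4. A separate product of CDKN2A, ARF, restrains MDM2, the ubiquitin ligase that degrades p53, and p53 in turn activates CDKN1A and MDM2. MYC encodes a transcription factor that drives growth, TERT the catalytic subunit of telomerase, and MEN1 the tumour suppressor menin. Genes of these pathways are recurrently altered in adrenocortical carcinoma.

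Sequences are shown for 6 sites of the overexpression list, namely the promoter sites of RB1, CDKN2A and CCNE1 that the basal list lacked, a CDKN1A site upstream of the gene with the same property, and the promoter sites of CDK4 and MDM2 that both lists held. They are given 5′ to 3′ on the strand of the gene, with GRCh37 (hg19) coordinates. Where a site ran into an untranslated region, only a stretch outside it of at most 300 bases is shown. Capitals mark matches to the motifs searched, which were CAAGGTCA or CAAGGCCA for SF-1, TTTCGCGC, TTTGGCGC or TTTCCCGC for E2F, CACGTG for the E-box that MYC and related factors bind, TGAGTCA for AP-1, and the CTCF and p53 motifs. All were searched on both strands. In the CDKN1A site the p53 match and the SF-1 match overlap and are capitalised as 1 run.
RB1, chr13:48877701-48877849 (+): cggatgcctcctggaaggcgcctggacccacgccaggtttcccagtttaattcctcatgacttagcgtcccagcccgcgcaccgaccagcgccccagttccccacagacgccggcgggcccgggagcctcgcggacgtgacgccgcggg
CDKN2A, chr9:21974883-21975182 (-): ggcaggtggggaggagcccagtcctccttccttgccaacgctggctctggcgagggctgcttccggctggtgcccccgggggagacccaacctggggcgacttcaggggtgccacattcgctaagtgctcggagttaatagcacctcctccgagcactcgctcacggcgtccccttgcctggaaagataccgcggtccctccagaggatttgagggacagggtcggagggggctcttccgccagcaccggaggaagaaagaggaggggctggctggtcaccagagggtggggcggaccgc
CCNE1, chr19:30302251-30302449 (+): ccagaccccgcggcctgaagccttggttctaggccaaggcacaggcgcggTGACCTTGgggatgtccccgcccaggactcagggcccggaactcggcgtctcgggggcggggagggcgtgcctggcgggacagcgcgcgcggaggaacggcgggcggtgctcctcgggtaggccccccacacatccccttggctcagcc
CDKN1A, chr6:36634951-36635199 (+): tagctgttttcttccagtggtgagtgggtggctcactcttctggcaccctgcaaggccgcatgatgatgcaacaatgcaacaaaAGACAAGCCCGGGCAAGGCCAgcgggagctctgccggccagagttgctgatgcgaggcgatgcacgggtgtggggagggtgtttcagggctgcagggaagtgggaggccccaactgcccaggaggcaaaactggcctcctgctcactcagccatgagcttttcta
CDK4, chr12:58146265-58146564 (-): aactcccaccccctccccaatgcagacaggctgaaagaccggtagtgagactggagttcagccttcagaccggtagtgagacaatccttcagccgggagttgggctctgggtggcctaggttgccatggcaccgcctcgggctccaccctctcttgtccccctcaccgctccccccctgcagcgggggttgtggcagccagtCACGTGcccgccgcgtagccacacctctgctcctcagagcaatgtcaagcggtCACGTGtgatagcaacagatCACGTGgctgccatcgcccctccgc
MDM2, chr12:69201629-69201928 (+): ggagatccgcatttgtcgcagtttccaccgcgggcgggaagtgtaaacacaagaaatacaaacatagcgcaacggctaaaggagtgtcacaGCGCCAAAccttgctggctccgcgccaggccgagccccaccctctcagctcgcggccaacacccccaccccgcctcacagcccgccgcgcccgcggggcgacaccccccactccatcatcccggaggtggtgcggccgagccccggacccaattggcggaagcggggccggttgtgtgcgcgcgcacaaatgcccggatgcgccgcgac

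The RB1 and CDKN2A stretches held no match to any motif searched, which says only that these letters are not in those windows. The CCNE1 site held 1 SF-1 match, the MDM2 stretch 1 E2F match, and the CDK4 stretch 3 of the 4 E-box matches of its site. The stretches differ in length. CpG dinucleotides numbered 18 in the 149 bases of RB1, 18 in the 300 of CDKN2A and 20 in the 199 of CCNE1. The CDK4 and MDM2 stretches carried 16 and 34 in 300 bases, and the upstream CDKN1A site 7 in 249.

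To ask where accessible sites lay around these genes, the sites of each list were counted and placed. Every gene had at least 1 site within 50 kb in each list, beside 86.3% (basal) and 86.5% (overexpression) of all protein-coding genes. The median was 5 sites per gene in both lists, with a range of 1 to 8, against a median of 3 and quartiles of 1 and 5 over all protein-coding genes. The basal excess depended on the annotated gene bodies, mostly that of RB1. Within 50 kb of the principal transcripts, basal sites numbered 1, 3, 5, 3, 6, 6, 5, 1 and 3, in the gene order given above. These centre on the all-gene median of 3, itself taken over gene bodies. The overexpression counts, 1, 4, 6, 3, 5, 8, 7, 1 and 6, still centre on 5. Sites within the gene body were found for 7 of the 9 genes in either list, all but CCNE1 and TERT, while 56.3% and 57.4% of all protein-coding genes had one. That count also depended on the annotated gene bodies. Within the principal transcripts RB1 had 1 basal and 0 overexpression sites, and CDKN2A 0 and 1. The ratio of overexpression to basal sites was 1.07 (95% interval 0.685 to 1.68) near the 9 genes and 0.907 (0.893 to 0.921) over all nuclear sites, and the first interval contains the second ratio. These intervals treat the lists as separate counts, although 27 sites of each list near the 9 genes were shared, so the comparison decides nothing.

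**Figure D1:**
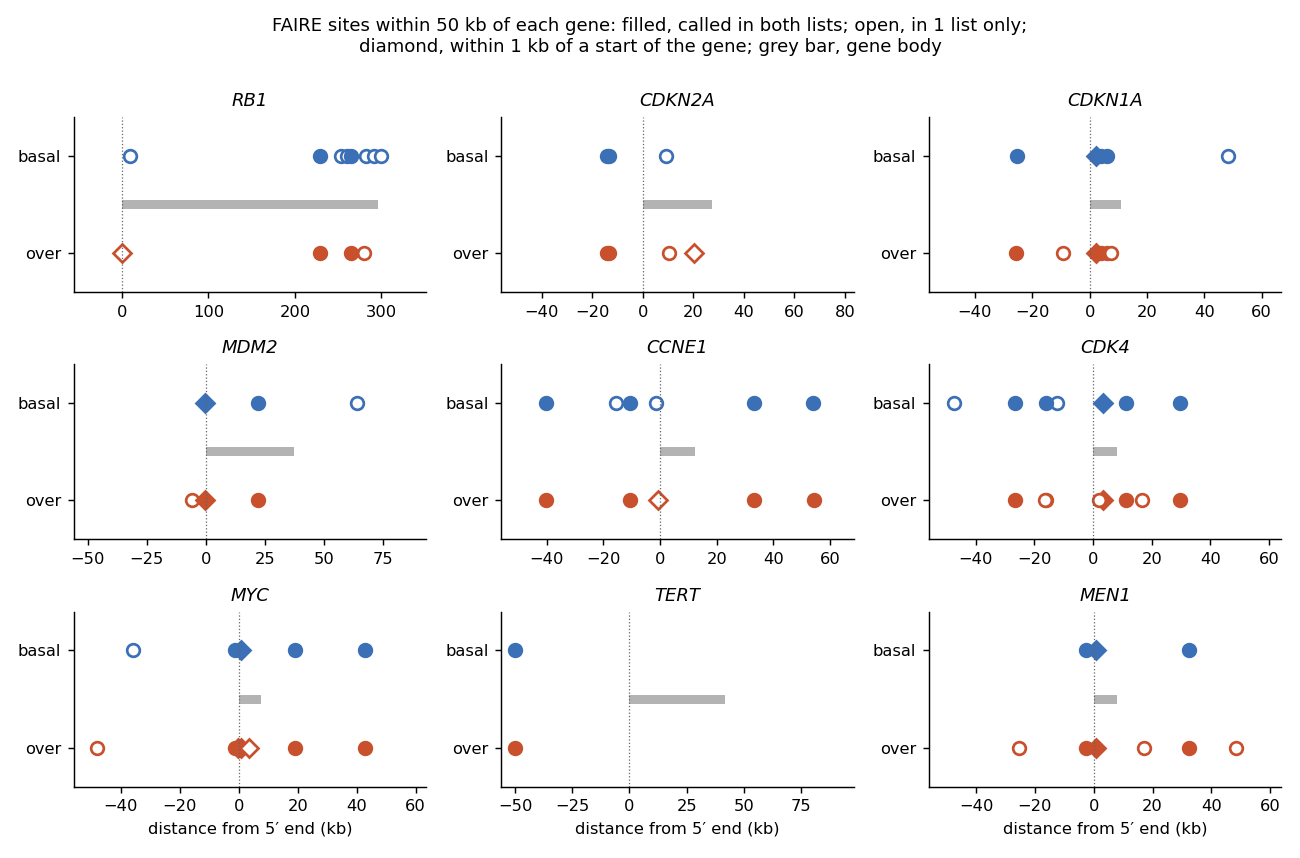
Position of every FAIRE site near the 9 genes, 1 panel per gene, with the distance of the site centre from the 5′ end of the gene body in kb on the x axis (positive in the direction of transcription), the basal list in the upper row, the overexpression list in the lower row and the gene body as a grey bar, filled points for sites called in both lists, open points for sites of 1 list only and diamonds for sites within 1 kb of a transcript start of the gene. RB1, CDKN2A and CCNE1 have an open diamond in the lower row and no diamond in the upper row, and the single TERT site lies at the upstream edge of the window.

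By gene, 5 of the 9 had more sites in the overexpression list, 2 had equal numbers and 2 had fewer. Over all protein-coding genes the corresponding shares were 33.2%, 31.8% and 35.0%. The gains were of 1 site at CDKN2A (3 basal and 4 overexpression sites), 1 at CDKN1A (5 and 6), 1 at CDK4 (7 and 8), 2 at MYC (5 and 7) and 3 at MEN1 (3 and 6). MDM2 had 3 sites and TERT 1 in each list, whereas RB1 had 8 basal and 4 overexpression sites and CCNE1 6 and 5. The RB1 difference rested on its long annotated isoform. Around the principal transcripts RB1 had 1 site in each list, and 5 genes had more overexpression sites, 3 equal numbers and 1 fewer.

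**Figure D2:**
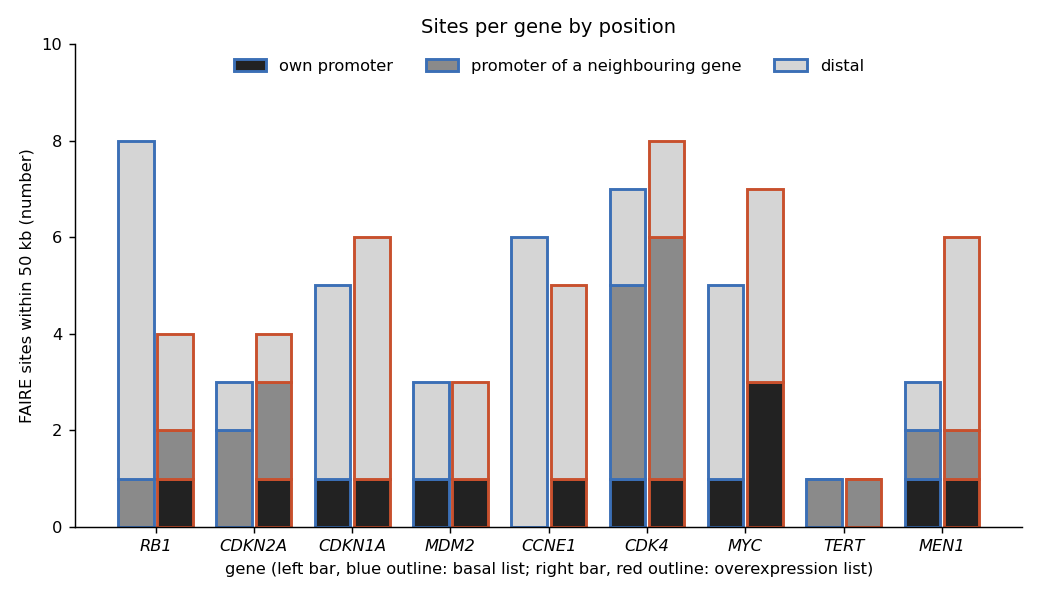
Number of FAIRE sites within 50 kb of each gene (y axis), with the basal list as the left bar and the overexpression list as the right bar, split into the gene's own promoter, the promoter of a neighbouring coding gene and distal sites. Own-promoter sites are present for 5 genes in the basal list and for 8 in the overexpression list, and TERT has none in either.

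Shared sites, defined by an overlap of 1 bp or more with a call of the other condition, formed 27 pairs. They made up 65.9% (49.4 to 79.9%) of the basal sites and 61.4% (45.5 to 75.6%) of the overexpression sites near the 9 genes. Over all nuclear sites the shares were 54.2% and 59.7%, inside these intervals. The other sites near the 9 genes were 14 basal-only and 17 overexpression-only ones, whereas 45.8% and 40.3% of all nuclear sites were condition-only. A basal-only site was found near 7 of the 9 genes and an overexpression-only site near 8, beside 60.7% and 60.6% of all protein-coding genes. The ratio of overexpression-only to basal-only sites was 1.21 (0.563 to 2.66) near the 9 genes and 0.798 over all sites. Of the 14 basal-only sites 6 were assigned to RB1, mostly along a long isoform described with that gene. In windows around the principal transcripts, an alternative chosen after seeing the data, there were 8 basal-only and 16 overexpression-only sites, a ratio of 2.00 (0.808 to 5.40), whereas the ratio was 0.750 (0.214 to 2.46) with only sites of at least 249 bp kept.

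Promoter sites, defined as lying within 1 kb of any annotated transcript start of the gene itself, were called for CDKN1A, MDM2, CDK4, MYC and MEN1 in the basal list, 5 of 9 genes. In the overexpression list the same 5 genes had one, and RB1, CDKN2A and CCNE1 as well, so that 8 of 9 genes had a promoter site. Of all protein-coding genes, 46.7% had a promoter site under basal SF-1 expression and 48.9% upon SF-1 overexpression. For 3 of the 9 genes, RB1, CDKN2A and CCNE1, all promoter sites were overexpression-only, and for 0 of 9 they were basal-only. These calls applied to 8.19% and 6.04% of all protein-coding genes. The numbers depended on the rules. With only sites of at least 249 bp kept, 5 and 6 genes had a promoter site, and the calls at RB1 and CCNE1 were lost. With the 5′ end of the gene body as the only start, 3 and 5 genes had one, and the calls at CDKN2A, CDKN1A and CDK4 were lost. That rule leaves out the starts of the principal transcripts of these genes, over or beside which the lost sites lay. Counting the promoters of neighbouring coding genes too, 13 of 14 promoter sites of the basal list (92.9%, 66.1 to 99.8%) and 13 of 20 of the overexpression list (65.0%, 40.8 to 84.6%) were shared, against 78.5% and 75.9% over all promoter sites. Distal sites were shared in 14 of 27 (51.9%) and 14 of 24 (58.3%) cases, against 43.7% and 51.3% over all distal sites.

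The condition-only sites also differed in base composition. Of the 17 overexpression-only sites near these genes, 7 had a GC content of at least 60%, and of the 14 basal-only sites 0 did. The same direction was present over the whole lists, in which 18.6% of the overexpression-only and 7.97% of the basal-only sites were at least 60% GC, a ratio of overexpression-only to basal-only sites of 1.86 among GC-rich and 0.706 among other sites. Among promoter sites of all coding genes that were at least 60% GC, 1532 were overexpression-only and 886 basal-only. The part of GC content in the promoter calls of RB1, CDKN2A and CCNE1, whose sites were 70.5%, 70.6% and 73.9% GC, was not tested.

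**Figure D3:**
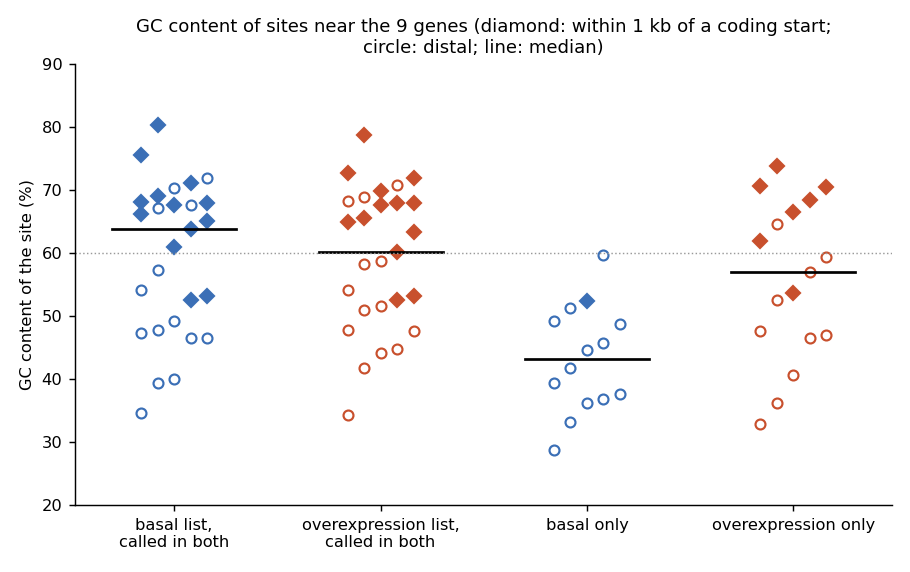
GC content in percent (y axis) of each FAIRE site near the 9 genes, for sites called in both lists, with the boundaries of either list, and for sites of 1 list only, with diamonds within 1 kb of a coding transcript start, circles for distal sites, black lines for medians and a dotted line at 60%. Basal-only sites lie between 28.9% and 59.7%, and overexpression-only sites between 32.9% and 73.9%.

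RB1, the pocket protein that restrains E2F, spans chr13:48877880-49173572 in GENCODE, on the forward strand. Its overexpression-only promoter site lay at chr13:48877701-48877849, in an exon of the divergent non-coding RNA RB1-DT and 31 bp upstream of the start of the gene. This site was 149 bp wide and stood at 93.2% of the list, where a place of 0% is the first and 100% the last peak number, so it was among the late and narrow calls. What set the order of the peak numbers is not given in the sources used here, so a place describes a position in a list and not a strength. The nearest basal site was an intronic one at chr13:48887151-48887299, 9271 bp inside the gene, which the overexpression list did not hold. Apart from these, the sites assigned to RB1 lay beyond the end of its principal transcript at position 49056026 of chromosome 13, along a long annotated isoform that runs across RCBTB2. Within 50 kb of the principal transcript there was 1 site in each list. A pair of shared sites lay in this distal part. The RCBTB2 promoter site was 249 bp wide at 26.6% of the basal list and 199 bp at 53.4% of the overexpression list. An intronic site starting at 49142251 was 449 bp wide at 18.2% of the basal list and 199 bp at 76.8% of the overexpression list, the largest difference in place among the 27 pairs. The other 5 basal-only sites were 149 to 249 bp wide and lay between positions 49130851 and 49177949, and the other overexpression-only site was 149 bp wide and started at 49158101. Downstream of the RB1 promoter call, the overexpression list held no site until the RCBTB2 promoter, an interval of 229001 bp that 19.4% of protein-coding genes matched or exceeded around their own 5′ end. In the basal list the interval around the RB1 5′ end was 66701 bp, which 46.3% matched or exceeded. That list likewise held no site between the intronic one ending at 48887299 and the RCBTB2 promoter site starting at 49106801.

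CDKN2A, on the reverse strand at chr9:21967751-21995300, has separate starts for its p16 and ARF transcripts. The overexpression-only site chr9:21974751-21975199 covered the p16 starts together with untranslated and coding sequence of that first exon. It was 449 bp wide, stood at 36.9% of its list, and was the widest overexpression-only site at a promoter of the 9 genes. The nearest basal site was 10902 bp away. At the ARF start neither list had a site: the nearest were intronic, 8092 bp away in the basal list (21986101, basal-only) and 9192 bp away in the overexpression list (21984951, overexpression-only), and these 2 sites lay 902 bp apart. The shared sites of the locus were both at CDKN2B, which encodes the related inhibitor p15. One, starting at 22009101 in the basal list, stood at 12.2% of that list and 4.44% of the overexpression list, whereas the other, starting at 22008651, stood at 36.7% and 71.5%. Calls at the CDKN2B promoter were thus present in both lists, while a call at the p16 start was present in 1.

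CDK4, the kinase that p16 inhibits, carried the earliest-placed site of the group. Its promoter site, chr12:58146001-58146549 in the basal list and chr12:58146001-58146599 in the overexpression list, had peak numbers 54 and 37, which are places of 0.157% and 0.119%. The widths were 549 and 599 bp, and the site held 4 E-box matches, 3 of them in the stretch printed. CDK4 lies in a gene-dense interval, and 4 of its 7 basal sites and 5 of its 8 overexpression sites were at promoters of neighbours. The shared ones were at TSPAN31 (299 bp in both lists), at METTL1 and EEF1AKMT3, which lie head to head (249 and 349 bp), and at TSFM (199 bp in both). The site at METTL1 stood at 29.1% of the basal and 8.57% of the overexpression list. A basal-only site lay 520 bp from a start of CYP27B1, the enzyme that activates vitamin D, at 91.6% of its list. Overexpression-only sites lay 326 bp from a start of AGAP2, at EEF1AKMT3, where the gap to the nearest basal site was only 152 bp, and in a CDK4 intron at chr12:58147501-58147699.

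CCNE1, which encodes cyclin E1, spans chr19:30302898-30315219 on the forward strand and had no site within its body. Upstream, the lists differed over a short distance. The basal list held chr19:30301401-30301599, 1299 bp from the start and therefore outside the 1 kb promoter limit, at 49.2% GC and 89.1% of the list. The overexpression list held chr19:30302251-30302449, 449 bp from the start, at 73.9% GC and 69.2% of the list, with the SF-1 match TGACCTTG on the forward strand. The 2 sites were 652 bp apart and both were 199 bp wide. With the promoter limit at 2.5 kb, CCNE1 had a promoter site in both lists. Of the 4 shared sites, all intergenic, the one at chr19:30292151-30292449 had the same boundaries in both lists and held 2 SF-1 matches. A shared site 40049 bp upstream by its basal boundary was 99 bp wide at 48.0% of the basal list and 199 bp at 15.6% of the overexpression list, and one downstream, starting at 30335751, stood at 51.6% and 27.6%. Another basal-only site, at chr19:30287301-30287649, also held an SF-1 match.

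CDKN1A, the p53 target that encodes p21, had 5 basal and 6 overexpression sites, of which 4 were shared. Its promoter site started at 36646251 of chromosome 6 in the basal and at 36646201 in the other list and was 249 bp wide in both. It lay over the non-coding RNA DINOL, at the start of the principal transcript (36646491), which the basal site covered. The annotated gene body begins farther upstream, so the basal boundary was 2014 bp into it. It stood at 39.7% and 29.6% of the lists. A shared site with its basal boundary 1653 bp from a start held 1 AP-1 and 1 E2F match, and another shared site, 349 bp wide in the basal and 249 bp in the overexpression list, covered untranslated sequence of the gene. Both overexpression-only sites held an SF-1 match. The one printed above, chr6:36634951-36635199, lay 9038 bp upstream of the nearest start, was 249 bp wide at 30.8% of its list, and also held the only p53 match among the sites of the 9 genes. The other, chr6:36651601-36651749, was intronic, 149 bp wide and at 80.1% of its list. The basal-only site of this locus lay 45903 bp from the nearest CDKN1A start, in an intron of RAB44, and held a CTCF match.

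MDM2, the ubiquitin ligase for p53, had the same promoter site in both lists, chr12:69201601-69201999, with identical boundaries and a width of 399 bp. The basal place was 22.2% and the overexpression place 19.2%, and the site held 1 E2F match. An intronic shared site with a CTCF match was 299 bp wide at 47.6% of the basal list and 249 bp at 74.3% of the overexpression list. The remaining sites were a basal-only one in an intron of CPM, 28382 bp from the nearest MDM2 start, and an overexpression-only one 5908 bp upstream.

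MEN1 was the other gene with a promoter site of identical boundaries, chr11:64577951-64578349, 399 bp wide, at 17.9% of the basal and 12.9% of the overexpression list. A shared site 2585 bp upstream by its basal boundary held SF-1 matches, 2 within the basal boundaries and 1 within the narrower overexpression boundaries. The widest site near any of the 9 genes lay at least 30442 bp from any MEN1 start, downstream, at the promoter of SF1, a splicing factor unrelated to SF-1 despite its symbol. It was 849 bp wide with peak number 102 in the basal list and 699 bp wide with peak number 264 in the overexpression list. MEN1 had 0 basal-only sites and 3 overexpression-only sites, all distal, which were an intergenic one of 299 bp, one in an intron of MAP4K2 of 149 bp and one in coding sequence of CDC42BPG of 99 bp, the narrowest width in the lists.

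MYC had 3 promoter sites in the overexpression list and 1 in the basal list. The shared site, chr8:128748251-128748599 in the basal list, covered untranslated and coding sequence of the first part of the gene and held 1 E2F match. It stood at 63.2% of the basal and 13.8% of the overexpression list, the pair among the 27 whose overexpression place was earlier by the most, although its width was 349 bp in the basal and 299 bp in the overexpression list. Overexpression-only sites lay 31 bp upstream of the 5′ end (249 bp wide, at 26.5% of the list) and 20 bp from an internal start, over coding sequence (149 bp wide, at 54.1%). Shared distal sites lay 1081 bp upstream with a CTCF match, with its basal centre 19170 bp downstream of the 5′ end with 2 SF-1 matches and 1 E-box match, and 42720 bp downstream with 1 SF-1 match. The second of these was 599 bp wide at 3.20% of the basal list and 349 bp at 5.21% of the overexpression list. Upstream, within the non-coding gene CASC11, a basal-only site of 399 bp and an overexpression-only site of 449 bp with an SF-1 match lay 8002 bp or more from any site of the other list.

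TERT, at chr5:1253262-1295183 on the reverse strand, had no site at its promoter or in its body in either list. Its single site in each list was at the promoter of CLPTM1L, 49918 bp upstream in the basal list and 49968 bp in the overexpression list, just inside the 50 kb limit. This shared site was the most GC-rich near the 9 genes, at 80.3% and 78.7%, and stood at 18.1% and 28.3% of the lists. The interval without a site around the TERT start was 170351 bp in the basal and 204451 bp in the overexpression list, and 25.4% and 21.7% of protein-coding genes had an interval at least as long.

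Across the 27 shared pairs, the overexpression site was wider in 4 (14.8%), equal in 9 (33.3%) and narrower in 14 (51.9%), against 36.2%, 26.5% and 37.3% of all 18703 pairs. It had an earlier place in 12 pairs and a later one in 15, with a median difference of 2.00 percentage points later. Over all pairs 46.8% had an earlier place and the median difference was 0.902 points later, so the split in place, unlike that in width, was close to background. Median widths were 249 bp in both lists for the sites of the 9 genes as for all sites, and the median place was 41.8% among basal and 41.9% among overexpression sites. Shared sites near the 9 genes had a median width of 299 bp in both lists, and basal-only and overexpression-only sites one of 199 bp. Over all nuclear sites the medians were 299 bp (basal) and 249 bp (overexpression) for shared sites and 199 bp for condition-only ones. The 14 basal-only and 17 overexpression-only sites near the 9 genes began at 38.1% and 26.5% of their lists, so none was among the earliest calls. Their first quartiles of place were 51.4% and 54.1%. Over all nuclear sites, condition-only sites began at 1.30% and 0.0673%, with first quartiles of 46.7% and 47.1%, so late places were not particular to these genes.

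**Figure D4:**
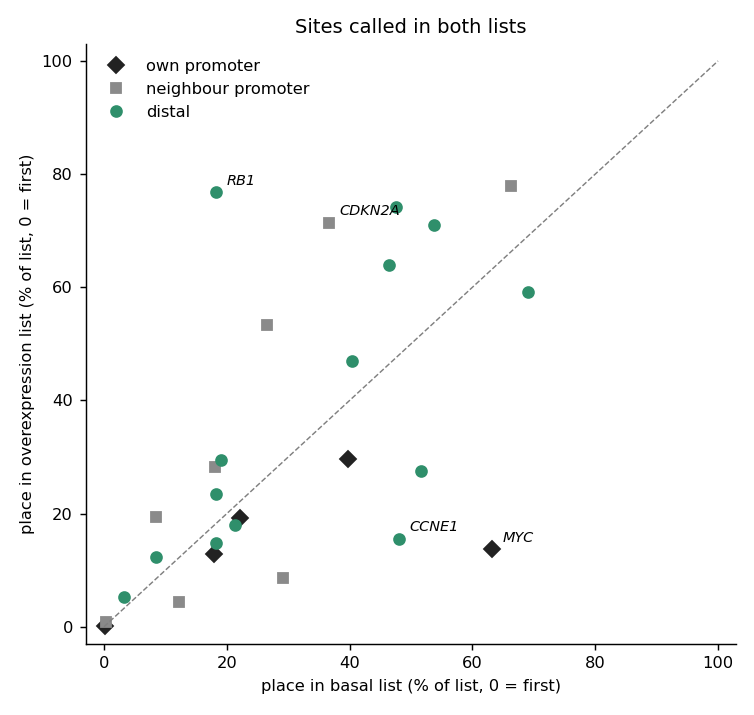
Place of each of the 27 shared sites along the basal list (x axis) and along the overexpression list (y axis), in percent of the list with 0 as the first peak number, where points below the dashed line stand earlier upon overexpression and names are given where the places differ by more than 30 percentage points. The RB1 site stood at 18.2% and 76.8% and the MYC promoter site at 63.2% and 13.8%.

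Among the motifs, SF-1 matches were held by 7 of 41 basal sites (17.1%, 7.15 to 32.1%) and 8 of 44 overexpression sites (18.2%, 8.19 to 32.7%) near the 9 genes, against 12.7% and 12.6% of all nuclear sites. They occurred in 4 of 17 overexpression-only, 3 of 14 basal-only and, in each list, 4 of 27 shared sites. E2F matches were held by 3 sites in each list, at CDKN1A, MDM2 and MYC, which is 7.32% (1.54 to 19.9%) and 6.82% (1.43 to 18.7%) against 1.79% and 2.06% of all sites. E-box matches were held by 7.32% and 6.82% against 5.43% and 5.94%, and CTCF matches by 19.5% and 13.6% against 17.5% and 16.0%. AP-1 matches were rarer, with 4.88% and 2.27% against 6.95% and 5.58%. The single p53 match compares with 0.305% and 0.333% of all sites. For every one of these motifs and in either list, the interval near the 9 genes contained the share over all sites.

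The rest of the G1/S and p53 pathway was described by 22 further genes listed for their roles there. A site lay within 50 kb of 20 of them in the basal and 19 in the other list, beside 86.3% and 86.5% of all protein-coding genes. A promoter site was called for 18 and 15, beside 46.7% and 48.9%. Among the 9 genes the numbers with a promoter site were 5 and 8. All promoter sites were basal-only for CCND1 (cyclin D1), CCNE2 (cyclin E2), E2F2 and the pocket protein gene RBL2, and overexpression-only for CDK6. These were 18.2% and 4.55% of the 22 genes, beside 6.04% and 8.19% of all protein-coding genes. RBL2 had 3 basal promoter sites and 0 upon overexpression. The CCND1 and CCNE2 calls were late and narrow, at 87.6% and 99.6% of the basal list with widths of 199 and 99 bp. The RBL2 sites stood at 24.9%, 62.3% and 88.0% of it with widths of 249, 199 and 149 bp, and both E2F2 sites were 199 bp wide, at 46.2% and 68.0%. The CDK6 call was 299 bp wide at 49.0% of the overexpression list. CDKN1C, which encodes the inhibitor p57, and MYCN had no site within 50 kb in either list.

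**Figure D5:**
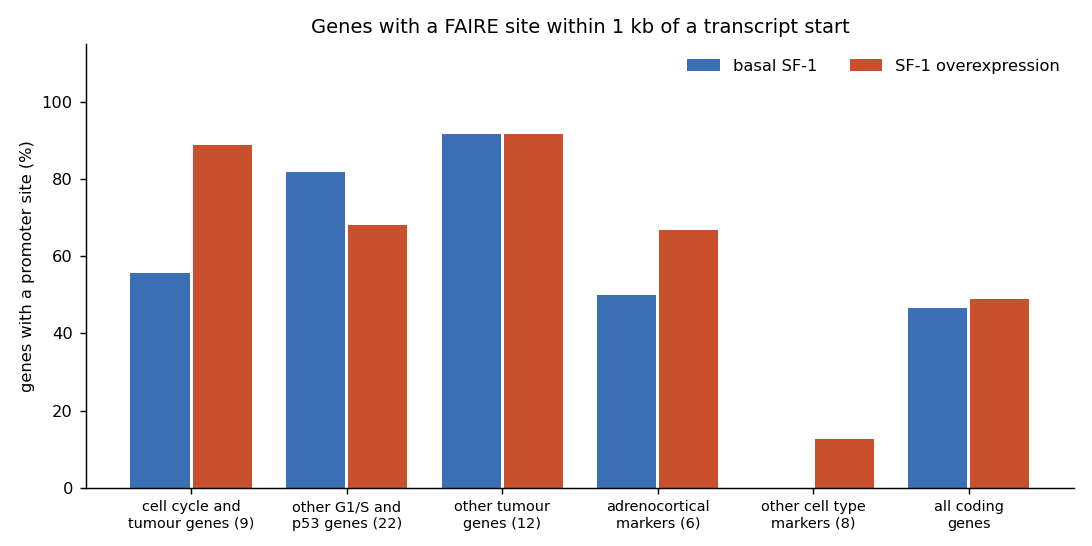
Percent of genes with a FAIRE site within 1 kb of a transcript start (y axis) in the basal and overexpression lists, for the 9 genes, the lists of further pathway and tumour genes, the marker genes and all protein-coding genes, with the number of genes in parentheses. The 9 genes stand at 55.6% and 88.9%, the 22 further pathway genes at 81.8% and 68.2%, and all protein-coding genes at 46.7% and 48.9%.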

How the data were processed

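FAIRE-seq had been performed on H295R/TR SF-1 cells in 2 conditions, with 1 FAIRE library and 1 library of input DNA per condition. Input DNA was not analysed here. The deposited files were lists of sites with chromosome, start, end and a running peak number, positions and running numbers that are neither counts nor signal (other values), and the score deposited by the authors was 1000 for every site. The submitters' processing notes name CASAVA 1.8 and hg19. The caller and threshold of the FAIRE lists are not given in the sources used here, so depth and error rate are unknown. This matters because a site near the threshold can be called in 1 list only.

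GENCODE release 44, in its GRCh37 mapping, gave genes and transcript starts, and sequence was read from GRCh37. Coordinates are 1-based. Sites overlapping by at least 1 bp were called shared. Shares have exact (Clopper-Pearson) 95% intervals and ratios exact binomial ones, and no test was made. CTCF matches allowed 1 mismatch. A p53 match was 2 adjacent copies of the decamer with up to 2 mismatches and the 4 core letters of C and G kept. A marker counted as present with a site within 1 kb of a start, 1 marker of other cell types was not matched, and 1 is not reported here. The rules were tested on simulated data. Named were all 9 genes, neighbours with a promoter site in their windows, and, of the other lists, genes with 0 sites in both lists or whose promoter sites were all called in 1 condition only. The genes, lists and rules were chosen with earlier results of these data known. Alternatives changed the window, the promoter limit, the overlap, the widths kept and the merging of sites, and the window around the principal transcript was added after seeing the data. Python 3.11.15, numpy 2.4.6, scipy 1.17.1 and matplotlib 3.10.9 were used.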

Additional observations from a re-analysis of the deposited data

How the results depend on the processing

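Recomputing 20 results under up to 11 alternatives gave 147 values, of which 121 stayed within 1.5 times the count reported or within the interval of the value reported, and 26 moved. With a window of 10 kb there were 21 basal and 26 overexpression sites, 14 and 13 of them distal and 8 of the basal ones basal-only, and 1 gene, TERT, had no site in either list. With only sites of at least 249 bp kept, 26 overexpression sites remained, 16 basal and 13 overexpression sites were distal, 8 were basal-only and 6 overexpression-only, 76.9% of the overexpression sites were shared, 1 gene, RB1, had no overexpression site, and the median place in the overexpression list was 25.0%. Set against the whole other list, these wider sites were shared in 89.3% (basal) and 76.9% (overexpression) of cases, which left 3 basal-only and 6 overexpression-only sites. A window of 100 kb gave 22 basal-only sites. A promoter limit of 2.5 kb gave 8 own-promoter sites in the basal list. With the 5′ end of the gene body as the only start, there were 3 basal and 6 overexpression promoter sites, at 3 and 5 genes. That rule leaves out the principal starts of CDKN2A, CDKN1A and CDK4. Around the principal transcripts, an alternative added after seeing the data, 33 basal and 41 overexpression sites were counted. RB1 then had 1 site in each list, and basal-only sites numbered 8, with 16 overexpression-only ones.

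With 1 library per condition, differences between libraries in depth or threshold cannot be told apart from differences between conditions. The overexpression-only promoter sites of RB1 and CCNE1 were narrower than 249 bp and were lost when only wider sites were kept. No paired analysis was possible because each condition had 1 library and no result came from a test.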

Other observations

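Among 12 further genes altered in adrenocortical tumours, 11 had a site within 50 kb and 11 a promoter site in each list. Of all protein-coding genes, 86.3% (basal) and 86.5% (overexpression) had a site within 50 kb, and 46.7% and 48.9% a promoter site. The exception in both lists was ATRX, a chromatin remodeller, whose nearest site lay 109232 bp from its 5′ end in either list. CTNNB1, which encodes the Wnt effector beta-catenin, had 1 promoter site in each list, but not the same one. It was the 1 gene of the 12 (8.33%) with promoter sites all condition-only, beside 6.04% (basal) and 8.19% (overexpression) of all protein-coding genes. The basal-only site, chr3:41241651-41241799, was 149 bp wide with a GC content of 37.6% and stood at 83.2% of its list. The overexpression-only site, chr3:41240801-41241099, was 299 bp wide with a GC content of 71.9% and stood at 8.44% of its list.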
